A study of Mus musculus with 20 samples.

Results

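The type I interferon stimulated genes followed here are 37 mouse genes that are induced by type I interferon, measured in liver and subcutaneous adipose tissue (SAT) after removal of visceral fat. They are the 37 rows of the deposited count table whose symbols are on a named list, of 40440 distinct entries in the table, and all 37 were found. The list was drawn up with the differences between surgeries, and the levels of sham liver 5 and sham SAT 5, already known from these data. Those values are therefore given as a description, and no test of them is offered as support. RNA was sequenced from 4 groups of 5 libraries: VAT removed liver, sham liver, VAT removed SAT and sham SAT. All came from male C57BL/6J mice that were 8 to 9 months old at surgery and ate a high-fat diet afterwards. In the VAT removed groups the epididymal visceral adipose tissue (VAT) was taken out, and in the sham groups the abdomen was opened and closed again. Total RNA was depleted of ribosomal RNA before library preparation. The labels number the libraries 1 to 5 in each group and do not say whether liver 5 and SAT 5 of a group came from the same mouse, so p-values measure the spread between these libraries.

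Type I interferons, the IFN-alpha family and IFN-beta, are secreted when a cell senses foreign or misplaced nucleic acid. They bind a receptor made of IFNAR1 and IFNAR2, whose kinases JAK1 and TYK2 phosphorylate STAT2. STAT2 and IRF9 are part of the complex ISGF3, which binds the interferon stimulated response element in promoters. The genes it switches on encode proteins that block viral RNA, tag proteins with ISG15, sense nucleic acid or, like USP18, dampen the receptor. Several, such as Stat2, Irf9 and Irf7, encode parts of the pathway itself. Hepatocytes, macrophages, lymphocytes and adipocytes all carry the receptor, so the bulk RNA of either tissue sums over cell types. Fewer cells of a type and less RNA per cell cannot be told apart in such samples.

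The libraries held 20307159 to 43618452 counts assigned to genes. The tissue labels fit the defining genes: albumin (Alb) was at or above 32476 CPM (counts scaled to a fixed library total) in every liver and at most 31.1 CPM in SAT, while adiponectin (Adipoq) was at least 983 CPM in SAT and at most 0.35 CPM in liver. CPM values here are scaled with TMM factors within a tissue unless said otherwise. Sham SAT 3 and 4 stood apart, with summed B cell markers (6 genes) of 511 and 547 CPM, against 6.62 to 11.6 CPM in the other 8 SAT libraries, and summed T cell markers of 250.5 and 234.6 CPM against 5.25 to 13.2 CPM. The members' results in SAT are therefore also given without these libraries. With an adjusted p under 0.05 (edgeR's quasi-likelihood test, Benjamini-Hochberg), 0 of 17078 genes differed between surgeries in liver and 0 of 18530 in SAT. At an unadjusted p under 0.05 there were 799 higher and 892 lower genes in liver and 811 higher and 1162 lower in SAT, and DESeq2 called 199 and 193 genes.

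The response element to which ISGF3 binds has the core GAAA NN GAAA, where N is any base. Promoter windows of 300 bases, 250 before to 50 after the annotated start, were available for 28 of the 37 members from RefSeq (GRCm38.p6). The core was found on either strand in 15 of these 28 (53.6%, exact 95% interval 33.9 to 72.5%), against 1079 of 27025 genes with a window (3.99%). The shorter GAAA NN GAA was in 17 of the 28, against 9.76% of all genes. Among other interferon stimulated genes 21 of 39 windows held the core. Among genes for the receptors, signalling, sensing and negative regulation 3 of 32 did, and the ligand genes were not counted. The sequences of 12 members are shown because they carry this shared element before the annotated start. Whole upstream windows are given for Isg15, Rsad2, Ifit3 and Ifit3b and short stretches for the others. In Ddx58, Ifih1 and Eif2ak2 the core began at base 3, 33 and 19 after the start, and these are not printed. Capitals mark the core on the strand printed or on its complement, and each line runs 5′ to 3′ on the gene's own strand, upstream of its annotated start. For 23 of 32 windows of the members, bases 1 to 30 after the start lay in a GENCODE M21 transcript of the gene. They did not for the windows shown of Ifit3, Ifit3b, Oas1a, Stat2 and Bst2, so the position relative to the start is less certain there. A match is a description of the letters and not evidence of binding.
Isg15 (chr4:156200819-156201068, minus strand): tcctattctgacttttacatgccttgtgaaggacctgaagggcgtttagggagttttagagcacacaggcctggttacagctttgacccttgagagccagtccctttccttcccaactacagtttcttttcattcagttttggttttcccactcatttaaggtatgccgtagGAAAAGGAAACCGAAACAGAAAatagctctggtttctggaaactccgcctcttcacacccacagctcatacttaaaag
Rsad2 (chr12:26456453-26456702, minus strand): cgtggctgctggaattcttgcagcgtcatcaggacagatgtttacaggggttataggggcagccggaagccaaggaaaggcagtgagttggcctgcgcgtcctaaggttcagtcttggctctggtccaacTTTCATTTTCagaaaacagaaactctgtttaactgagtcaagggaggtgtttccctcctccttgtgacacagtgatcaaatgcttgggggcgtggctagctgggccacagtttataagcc
Ifit3 (chr19:34583279-34583528, plus strand): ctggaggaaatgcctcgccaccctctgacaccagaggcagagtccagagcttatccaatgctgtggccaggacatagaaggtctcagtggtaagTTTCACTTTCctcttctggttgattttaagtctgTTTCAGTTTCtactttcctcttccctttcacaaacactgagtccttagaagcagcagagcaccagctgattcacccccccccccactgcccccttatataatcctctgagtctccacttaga
Ifit3b (chr19:34607707-34607956, plus strand): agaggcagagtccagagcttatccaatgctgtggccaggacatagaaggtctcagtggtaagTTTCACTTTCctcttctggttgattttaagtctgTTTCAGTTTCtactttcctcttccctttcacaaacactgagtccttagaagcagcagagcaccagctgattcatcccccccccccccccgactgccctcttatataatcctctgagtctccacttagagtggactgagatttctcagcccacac
Ifit1 (chr19:34640775-34640823, plus strand): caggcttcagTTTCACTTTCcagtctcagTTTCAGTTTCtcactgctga
Oas1a (chr5:120907526-120907555, minus strand): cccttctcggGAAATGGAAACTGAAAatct
Oas1g (chr5:120887614-120887641, minus strand): cccttctcggGAAATGGAAACTGAAAat
Oas3 (chr5:120777715-120777744, minus strand): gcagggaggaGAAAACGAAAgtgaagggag
Stat2 (chr10:128270266-128270295, plus strand): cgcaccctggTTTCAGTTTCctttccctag
Bst2 (chr8:71537577-71537612, minus strand): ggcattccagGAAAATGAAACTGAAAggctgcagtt
Trim30a (chr7:104465210-104465239, minus strand): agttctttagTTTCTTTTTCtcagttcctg
Cxcl10 (chr5:92349083-92349112, minus strand): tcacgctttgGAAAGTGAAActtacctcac
In Isg15 3 overlapping matches form one run, and Oas1a, Oas1g and Bst2 hold 2 overlapping matches each. The stretch shown for Ifit1 has 2 separate cores, as do the windows of Ifit3 and Ifit3b. The windows of Ifit3 and Ifit3b were identical at 258 of 260 aligned bases, with 14 gap positions, and those of Oas1a and Oas1g at 261 of 294, with 9 gap positions. The transcripts are alike too: 51.2% of the 50-base stretches of Ifit3 recur in Ifit3b, and 57.6% of those of Oas1a in Oas1g. Values of these 4 genes are uncertain, because no source used here says how reads that match both copies were handled.

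Across the 37 genes, 1 sham library in each tissue stood above all others, and both bore the number 5. The mean log2 CPM of the members was 4.07, 3.60, 3.69, 3.82 and 4.15 in VAT removed livers 1 to 5, against 4.00, 4.78, 4.05, 4.00 and 6.35 in sham livers 1 to 5. Sham liver 5 was the highest and sham liver 2 the next, while sham livers 1, 3 and 4 lay inside the range of the VAT removed livers. In SAT the same mean was 4.32, 3.77, 4.20, 3.85 and 4.36 in VAT removed libraries 1 to 5, against 4.55, 4.48, 3.99, 4.18 and 5.61 in sham libraries 1 to 5. Sham SAT 5 was the highest, sham SAT 1 and 2 were next, and sham SAT 3 and 4 lay within the VAT removed range. Within the VAT removed groups library 5 had the highest mean and library 2 the lowest in both tissues.

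Sham liver 5 had the highest level of the 10 livers for 37 of 37 members, where it was highest for 11.8% of all genes tested. Sham liver 2 was next for 31 of 37, against 10.8% of all genes. VAT removed liver 2 was lowest for 20 members, against 11.4% of all genes, and VAT removed liver 3 for 10, against 13.7%. In SAT, sham library 5 was highest for 33 of 37 members and for 6.22% of all genes. The exceptions were Mx1 and Sp100, highest in sham SAT 3 (in sham SAT 4 when scaled by total counts), Ifi27l2a, highest in sham SAT 2, and Cxcl10, highest in VAT removed SAT 1. VAT removed SAT 2 was lowest for 17 members, against 8.65% of all genes, and sham SAT 3 for 13, against 16.1%. Scaling by total counts instead of TMM left sham library 5 highest for 37 members in liver and for 33 in SAT. With that scaling VAT removed SAT 2 was lowest for 26 members, against 27.0% of all genes, and sham SAT 3 for 7, against 12.0%.

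**Figure D1:**
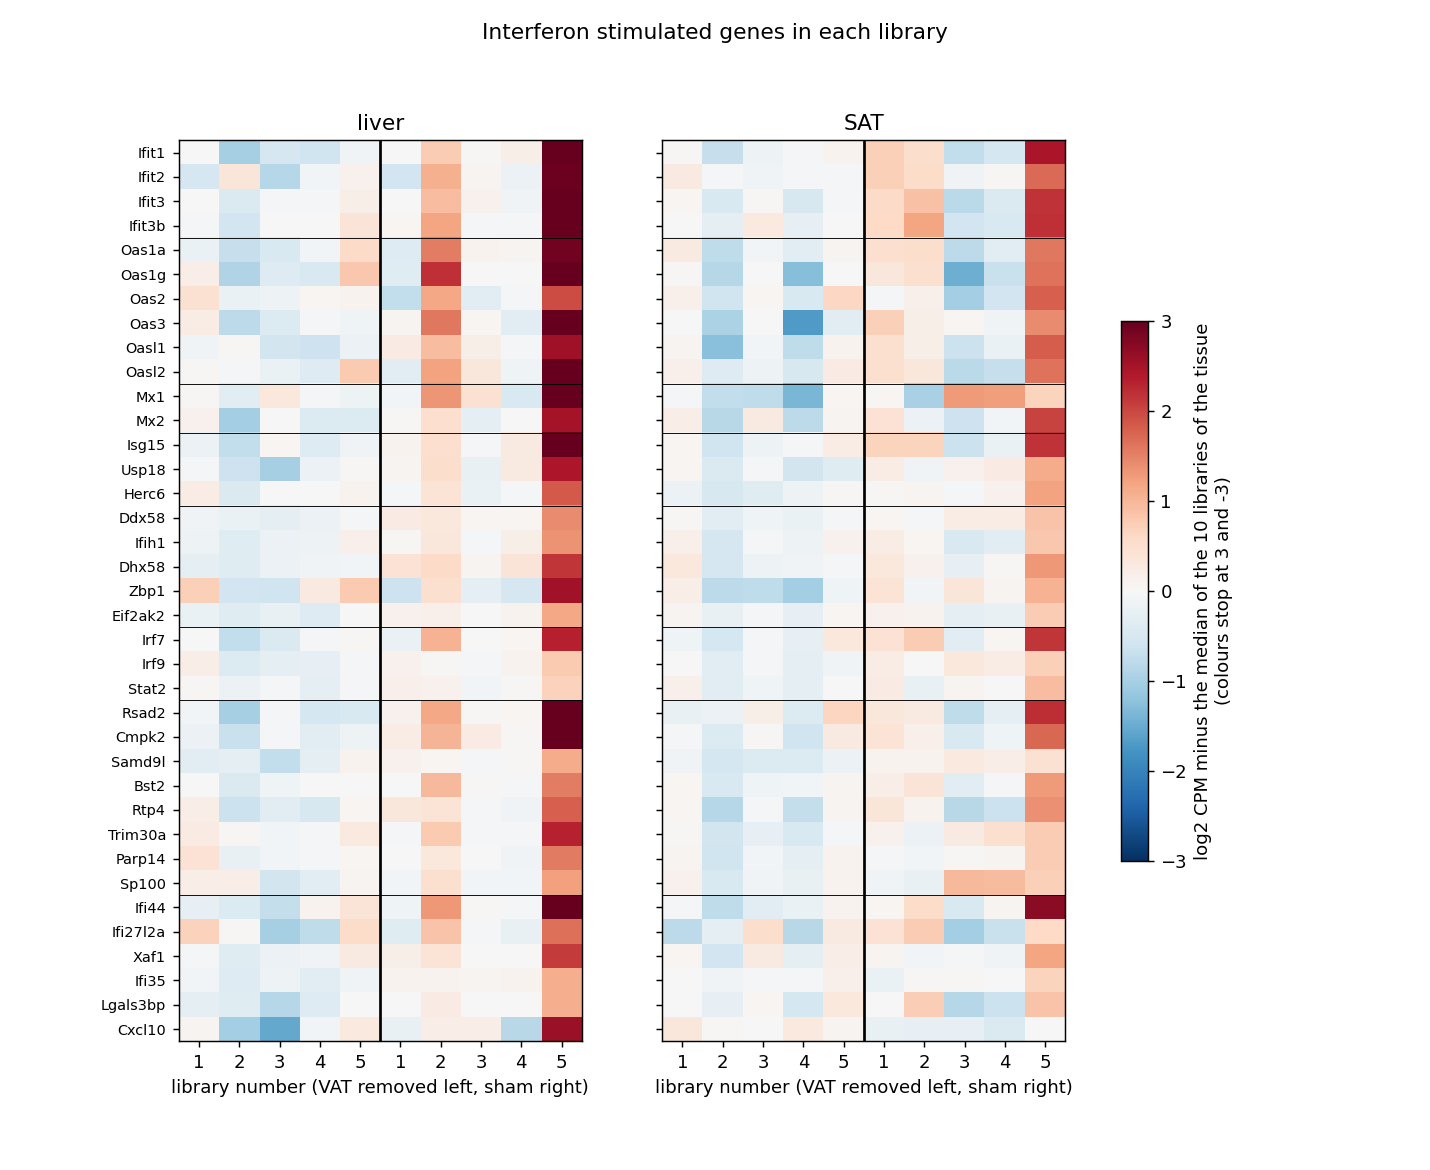
Level of each of the 37 genes (rows, grouped by role) in each library (columns), as log2 CPM minus the median of the 10 libraries of the tissue, with VAT removed libraries left of the line and sham libraries right of it. Sham liver 5 is the darkest red column in liver, highest for 37 of 37 genes, and sham SAT 5 is highest for 33 of 37 in SAT.

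In liver the 37 genes had lower fitted levels after VAT removal than after sham surgery, with a median log2 difference of -1.14 (range -2.38 for Rsad2 to -0.32 for Stat2). Over all genes tested the median was 0.01 and 47.8% were lower. None of the 37 passed an adjusted p of 0.05 by edgeR, where 0% of all genes did, or by DESeq2, where 0.689% of all genes were called lower. At an unadjusted p under 0.05 (edgeR) 27 members were lower, against 892 of all 17078 genes. Much of the difference depended on sham liver 5. Without it 36 of 37 were lower with a median of -0.36, against 47.3% lower and a median of 0.01 over all genes. In that fit 13 members were lower at an unadjusted p under 0.05, against 910 of all 17210 genes, and Zbp1 turned to 0.39. Without sham livers 2 and 5 together, 27 of 37 were lower and 10 higher with a median of -0.14, against 46.2% lower and a median of 0.02 over all genes. For 6 members every VAT removed liver was below every sham liver, with or without sham liver 5: Ddx58, Dhx58, Eif2ak2, Rsad2, Cmpk2 and Ifi35. Groups did not overlap in that direction for 1.5% of all genes, and in the opposite one, which held 0 members, for 0.937%.

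Ifit genes encode proteins that bind viral RNA and block its translation. Ifit3 had 16.3, 12.0, 15.5, 15.6 and 18.1 CPM in VAT removed livers 1 to 5, against 16.0, 30.7, 17.5, 14.9 and 177 CPM in sham livers 1 to 5. Ifit1 had 13.4, 6.66, 9.48, 8.84 and 12.5 CPM in VAT removed livers 1 to 5, against 13.3, 22.7, 13.7, 15.1 and 152 CPM in sham livers 1 to 5. In both, sham liver 5 was far above the other 9 livers, and the VAT removed livers otherwise reached into the range of the sham livers. Ifit2 had 5.91, 10.8, 4.64, 7.95 and 9.18 CPM in VAT removed livers 1 to 5, against 5.66, 17.8, 8.97, 7.48 and 64.8 CPM in sham livers 1 to 5. VAT removed liver 2 was above sham livers 1, 3 and 4 for Ifit2, so the groups overlapped. The 4 Ifit genes differed by -2.09 to -1.44 on the log2 scale with all libraries, and by -0.68 to -0.36 without sham liver 5.

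The 2-5 oligoadenylate synthetase (OAS) genes encode enzymes that answer double-stranded RNA by activating RNase L, and the OAS-like genes Oasl1 and Oasl2 belong to the same family. Oasl2 had 11.1, 10.8, 9.53, 8.37 and 18.9 CPM in VAT removed livers 1 to 5, against 8.79, 25.2, 13.9, 9.97 and 98.4 CPM in sham livers 1 to 5. Oasl1 had 22.3, 24.6, 16.4, 15.7 and 21.5 CPM in VAT removed livers 1 to 5, against 28.7, 46.2, 27.1, 23.7 and 140.4 CPM in sham livers 1 to 5. Oas2 had 13.7, 8.69, 8.88, 10.4 and 10.7 CPM in VAT removed livers 1 to 5, against 5.98, 22.0, 7.91, 9.50 and 38.8 CPM in sham livers 1 to 5. VAT removed liver 5 lay above sham livers 1, 3 and 4 for Oasl2, VAT removed liver 2 lay above sham liver 4 for Oasl1, and for Oas2 all the VAT removed livers lay above sham liver 1, so only sham livers 2 and 5 exceeded the whole VAT removed group for Oas2. The log2 differences of the 6 genes were -1.90 to -0.69 with all libraries and -0.90 to -0.12 without sham liver 5. Mx2, an interferon-induced GTPase gene, had 11.8, 5.34, 11.0, 8.18 and 8.15 CPM in VAT removed livers 1 to 5, against 11.2, 15.4, 8.97, 10.7 and 61.2 CPM in sham livers 1 to 5. Its relative Mx1 had 3.07, 2.35, 3.68, 2.88 and 2.67 CPM in VAT removed livers 1 to 5, against 2.81, 7.50, 4.08, 2.15 and 48.7 CPM in sham livers 1 to 5. Both were high in sham liver 5, where Mx1 was 14.1 times the median of the other sham livers, and both had VAT removed livers inside the range of sham livers 1 to 4. C57BL/6 mice are known to carry a disrupted Mx1 allele that makes no working protein, although its RNA is counted.

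Isg15 encodes the ubiquitin-like protein that is attached to other proteins, Herc6 the mouse ligase for it, and Usp18 the protease that removes it and also restrains the receptor. Herc6 had 27.6, 17.5, 23.5, 23.9 and 25.3 CPM in VAT removed livers 1 to 5, against 22.9, 31.3, 20.7, 23.3 and 84.3 CPM in sham livers 1 to 5. Usp18 had 18.2, 12.0, 9.33, 16.3 and 18.9 CPM in VAT removed livers 1 to 5, against 19.6, 26.5, 15.9, 22.5 and 99.8 CPM in sham livers 1 to 5. Isg15 had 7.42, 5.05, 8.73, 6.49 and 7.79 CPM in VAT removed livers 1 to 5, against 9.14, 11.9, 8.16, 10.1 and 73.1 CPM in sham livers 1 to 5. Sham liver 5 was above the rest for all 3 and the other sham livers overlapped the VAT removed livers. Their log2 differences were -1.67 to -0.63 with all libraries and -0.50 to -0.06 without sham liver 5.

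Among the nucleic acid sensors, Ifih1 (MDA5) and Ddx58 (RIG-I) detect viral RNA, Dhx58 (LGP2) tunes them, Zbp1 senses Z-form nucleic acid and Eif2ak2 (PKR) halts translation. Ifih1 had 53.8, 46.0, 52.6, 53.8 and 65.8 CPM in VAT removed livers 1 to 5, against 60.9, 75.9, 58.3, 67.7 and 152 CPM in sham livers 1 to 5. Ddx58 had 46.6, 43.3, 41.8, 44.6 and 48.0 CPM in VAT removed livers 1 to 5, against 58.9, 62.8, 52.3, 52.2 and 134 CPM in sham livers 1 to 5. Eif2ak2 had 24.3, 21.8, 23.9, 21.2 and 27.8 CPM in VAT removed livers 1 to 5, against 30.6, 30.9, 28.0, 29.8 and 62.8 CPM in sham livers 1 to 5. For Ddx58 and Eif2ak2 every VAT removed liver was below every sham liver, and for Ifih1 VAT removed liver 5 overlapped the sham range. With all libraries the 5 sensors differed by -1.14 (Dhx58) to -0.61 (Ifih1), and without sham liver 5 by -0.57 (Dhx58) to 0.39 (Zbp1).

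Among the transcription factor genes Stat2 and Irf9 had the smallest log2 differences. Stat2, a subunit of ISGF3, had 102, 88.2, 95.3, 81.1 and 97.9 CPM in VAT removed livers 1 to 5, against 111, 109, 94.2, 103 and 161 CPM in sham livers 1 to 5. Irf9, the DNA-binding subunit, had 49.7, 32.6, 36.0, 36.7 and 41.8 CPM in VAT removed livers 1 to 5, against 47.2, 44.7, 42.2, 46.8 and 75.2 CPM in sham livers 1 to 5. Both overlapped between surgeries, and their log2 differences of -0.32 and -0.38 were the smallest in size of the 37. Irf7, the factor that amplifies interferon production, had 61.8, 37.0, 45.2, 58.7 and 62.8 CPM in VAT removed livers 1 to 5, against 53.2, 127, 60.9, 63.7 and 310.4 CPM in sham livers 1 to 5. Irf7 was high in sham livers 2 and 5 and overlapped in the others.

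Of the other antiviral effectors, Parp14 encodes an ADP-ribosyltransferase, Bst2 (tetherin) a protein that holds budding virus on the membrane, Samd9l a protein that inhibits translation and Rsad2 (viperin) an enzyme that makes a chain-terminating nucleotide. Parp14 had 114, 72.2, 79.7, 82.6 and 87.9 CPM in VAT removed livers 1 to 5, against 84.7, 106, 84.7, 78.8 and 248 CPM in sham livers 1 to 5. Bst2 had 82.9, 62.2, 76.6, 83.7 and 84.6 CPM in VAT removed livers 1 to 5, against 84.4, 164, 86.8, 81.2 and 244 CPM in sham livers 1 to 5. For Parp14 VAT removed liver 1 was above all sham livers except 5, and for Bst2 sham livers 2 and 5 were above the others. Samd9l had 35.7, 37.4, 26.9, 36.3 and 48.0 CPM in VAT removed livers 1 to 5, against 49.3, 46.7, 43.8, 45.9 and 97.2 CPM in sham livers 1 to 5. Rsad2 had 16.8, 8.81, 17.2, 12.3 and 12.9 CPM in VAT removed livers 1 to 5, against 19.4, 39.5, 18.2, 18.4 and 257 CPM in sham livers 1 to 5. The groups of Rsad2 did not overlap and its log2 difference of -2.38 ± 0.80 (SE) was the largest in size, and it was -0.82 without sham liver 5. For Samd9l the range of the VAT removed livers reached into that of the sham livers through library 5.

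Among the remaining induced genes, Lgals3bp encodes a secreted galectin-binding glycoprotein, Ifi27l2a a small membrane protein, Ifi35 a leucine zipper protein, Ifi44 a protein of the antiviral response and Cxcl10 a chemokine that draws T cells. Lgals3bp had 142, 132, 93.8, 129 and 170.0 CPM in VAT removed livers 1 to 5, against 169, 199.7, 171, 171 and 360.1 CPM in sham livers 1 to 5. Ifi27l2a had 6.07, 3.84, 1.87, 2.19 and 5.48 CPM in VAT removed livers 1 to 5, against 2.92, 6.79, 3.65, 3.22 and 11.8 CPM in sham livers 1 to 5. Ifi35 had 16.4, 13.3, 15.7, 13.8 and 16.2 CPM in VAT removed livers 1 to 5, against 18.7, 18.8, 18.5, 18.6 and 36.9 CPM in sham livers 1 to 5. Ifi35 did not overlap between surgeries, Lgals3bp overlapped through VAT removed liver 5, and Ifi27l2a was higher in VAT removed livers 1 and 5 than in sham livers 1, 3 and 4. Ifi44 had 6.87, 6.11, 4.94, 8.72 and 10.7 CPM in VAT removed livers 1 to 5, against 7.49, 20.0, 8.33, 7.95 and 78.1 CPM in sham livers 1 to 5. Cxcl10 had 5.15, 2.38, 1.66, 4.61 and 5.95 CPM in VAT removed livers 1 to 5, against 4.19, 5.61, 5.60, 2.71 and 29.2 CPM in sham livers 1 to 5. Sham liver 2 came next to sham liver 5 for Ifi44. Sham liver 5 alone was high for Cxcl10, and the other livers of both surgeries spanned 1.66 to 5.95 CPM.

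**Figure D2:**
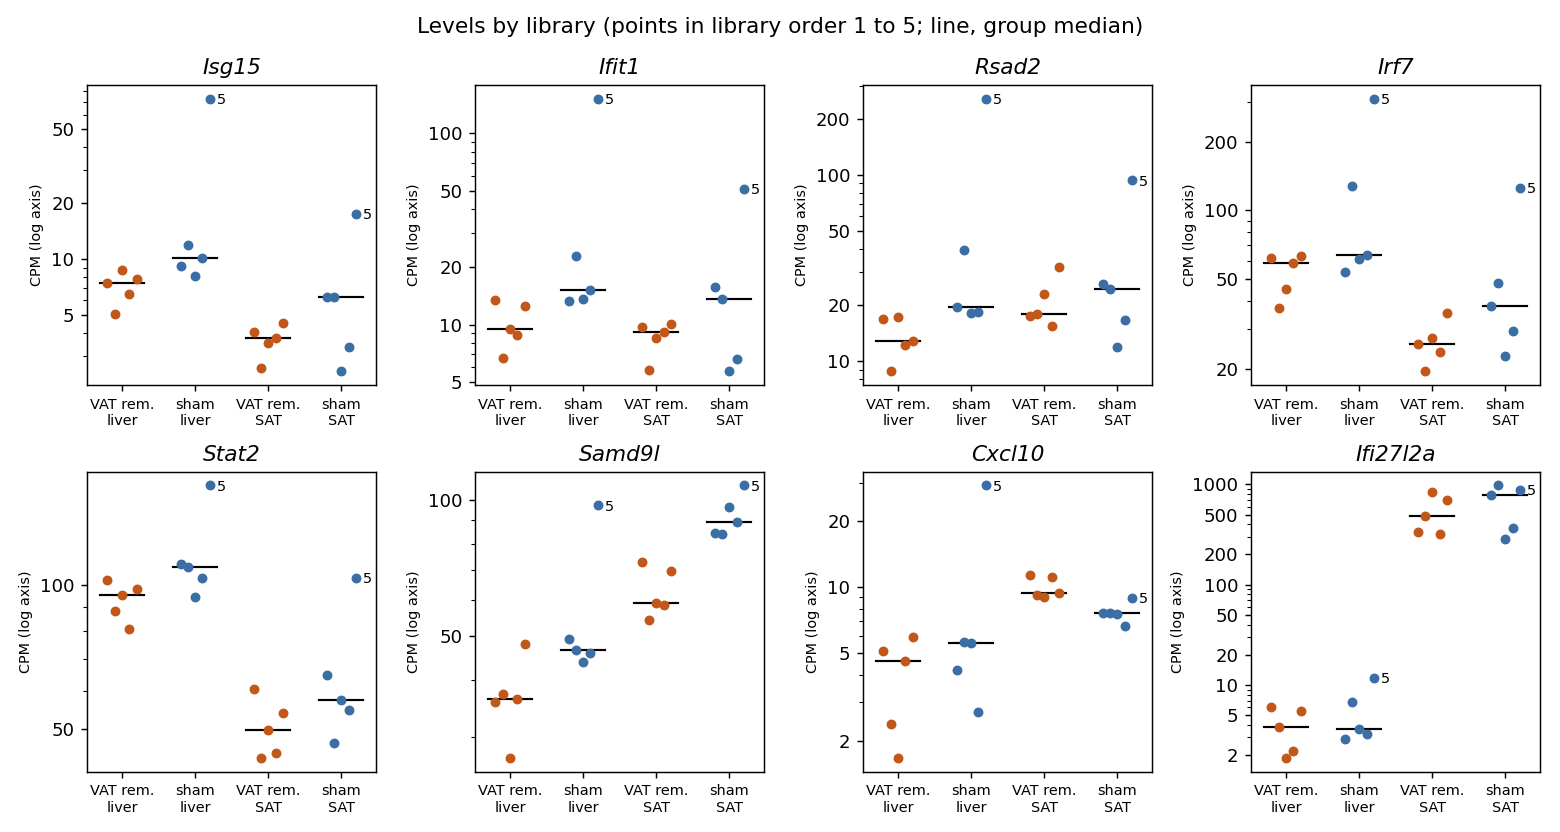
Levels in CPM (log axis) of 8 members in each library, in library order within a group, with VAT removed (orange) left of sham (blue) in liver and then in SAT; the line is the group median and sham library 5 is marked. Sham library 5 is above the other sham libraries of its tissue except for Ifi27l2a in SAT, where sham SAT 2 had 977 CPM.

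In SAT the members were also lower after VAT removal, by a smaller median of -0.58 on the log2 scale. Of the 37, 36 were lower and Cxcl10 was higher (0.38 ± 0.12), where 50.3% of all genes were lower and their median was -0.0020. By edgeR 0 passed an adjusted p of 0.05, as did 0% of all genes. At an unadjusted p under 0.05, 13 members were lower and 1 higher, against 1162 lower and 811 higher of all 18530 genes. DESeq2 called 1 member lower, Samd9l (adjusted p = 0.00433), where it called 0.671% of all genes lower and 0.21% higher. Without sham SAT 5, 32 of 37 were lower and the median was -0.20, against 48.8% lower and a median of 0.01 over all genes. Leaving out sham SAT 3 and 4 instead gave 36 lower with a median of -0.79, against 47.6% lower over all genes. Leaving out 3, 4 and 5 gave 34 lower with a median of -0.39, against 48.2% lower over all genes. Samd9l was the member whose VAT removed libraries were all below the sham libraries, a separation seen in 0.61% of all genes, and Cxcl10 the one whose were all above, seen in 0.831%.

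The Ifit genes of SAT differed by -1.10 to -0.72 with all libraries, and by -0.41 to -0.26 without sham SAT 5. Ifit3 had 18.6, 12.9, 18.2, 12.8 and 17.5 CPM in VAT removed SAT 1 to 5, against 26.5, 33.0, 10.3, 13.3 and 80.2 CPM in sham SAT 1 to 5. Ifit1 had 9.70, 5.82, 8.50, 9.19 and 10.1 CPM in VAT removed SAT 1 to 5, against 15.6, 13.5, 5.70, 6.60 and 51.2 CPM in sham SAT 1 to 5. Ifit2 had 17.7, 14.0, 13.6, 14.1 and 14.4 CPM in VAT removed SAT 1 to 5, against 23.8, 21.5, 13.5, 14.9 and 47.6 CPM in sham SAT 1 to 5. Sham SAT 5, 1 and 2 were above the VAT removed libraries for all 3 genes, and sham SAT 3 and 4 lay within or below the VAT removed range. In the OAS family Oasl2 had 26.1, 18.0, 21.3, 16.9 and 28.0 CPM in VAT removed SAT 1 to 5, against 33.2, 29.6, 13.5, 14.6 and 73.3 CPM in sham SAT 1 to 5. Oasl1 had 4.93, 1.93, 4.37, 2.75 and 5.00 CPM in VAT removed SAT 1 to 5, against 6.44, 5.21, 2.97, 4.04 and 16.4 CPM in sham SAT 1 to 5. Oas2 had 22.3, 13.3, 20.9, 14.8 and 31.1 CPM in VAT removed SAT 1 to 5, against 19.5, 22.3, 10.0, 13.6 and 70.3 CPM in sham SAT 1 to 5. Outside sham SAT 5 these 3 genes overlapped between surgeries, and VAT removed SAT 5 was above sham SAT 1 to 4 for Oas2.

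The Mx genes parted in SAT. Mx1 had 5.42, 3.39, 3.32, 2.18 and 5.85 CPM in VAT removed SAT 1 to 5, against 5.87, 2.86, 13.6, 13.4 and 8.95 CPM in sham SAT 1 to 5. Sham SAT 3 and 4 were highest for Mx1, with sham SAT 5 next, and sham SAT 2 lay inside the VAT removed range. Mx2 had 4.53, 2.24, 4.77, 2.30 and 4.17 CPM in VAT removed SAT 1 to 5, against 5.34, 3.51, 2.58, 3.77 and 16.2 CPM in sham SAT 1 to 5. Mx2 was highest in sham SAT 5 by 3.04 times over the next library. The log2 difference of Mx1 was -1.15 with all libraries, -1.14 without sham SAT 5 and -0.12 without sham SAT 3, 4 and 5.

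In the ISG15 system Herc6 had 19.7, 15.9, 17.3, 19.8 and 22.9 CPM in VAT removed SAT 1 to 5, against 22.8, 23.4, 21.5, 24.4 and 50.9 CPM in sham SAT 1 to 5. Usp18 had 13.3, 9.48, 12.4, 8.71 and 9.99 CPM in VAT removed SAT 1 to 5, against 14.9, 12.0, 14.0, 15.2 and 28.0 CPM in sham SAT 1 to 5. Isg15 had 4.04, 2.58, 3.54, 3.78 and 4.54 CPM in VAT removed SAT 1 to 5, against 6.26, 6.21, 2.48, 3.37 and 17.5 CPM in sham SAT 1 to 5. Sham SAT 5 stood above the rest for all 3, and the other sham libraries of Isg15 split into 1 and 2 above and 3 and 4 within or below the VAT removed range. Among the sensors Ifih1 had 53.4, 34.1, 45.8, 43.0 and 52.5 CPM in VAT removed SAT 1 to 5, against 56.0, 50.4, 34.9, 38.5 and 83.9 CPM in sham SAT 1 to 5. Ddx58 had 53.1, 40.9, 47.6, 45.4 and 50.8 CPM in VAT removed SAT 1 to 5, against 53.9, 50.3, 60.3, 60.8 and 93.5 CPM in sham SAT 1 to 5. Eif2ak2 had 37.8, 30.3, 34.4, 29.9 and 36.7 CPM in VAT removed SAT 1 to 5, against 38.9, 38.5, 29.1, 30.7 and 60.6 CPM in sham SAT 1 to 5. The sensors overlapped between surgeries in SAT, and their log2 differences ran from -0.85 for Zbp1 to -0.20 for Ifih1.

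For the transcription factors, Stat2 had 60.8, 43.5, 49.8, 44.6 and 53.9 CPM in VAT removed SAT 1 to 5, against 64.7, 46.8, 57.6, 54.8 and 103 CPM in sham SAT 1 to 5. Irf9 had 32.5, 25.6, 31.2, 26.9 and 30.2 CPM in VAT removed SAT 1 to 5, against 37.9, 32.2, 40.6, 37.7 and 53.4 CPM in sham SAT 1 to 5. Irf7 had 25.8, 19.5, 27.3, 23.8 and 35.3 CPM in VAT removed SAT 1 to 5, against 37.9, 47.6, 22.8, 29.3 and 126 CPM in sham SAT 1 to 5. Irf9 was lower in 4 of 5 VAT removed libraries than in any sham library, and Irf7 overlapped through sham SAT 3 and 4. Of the effectors, Parp14 had 136, 85.3, 120.2, 106 and 137 CPM in VAT removed SAT 1 to 5, against 126, 121, 131, 136 and 219 CPM in sham SAT 1 to 5. Bst2 had 28.9, 20.0, 25.3, 26.1 and 29.4 CPM in VAT removed SAT 1 to 5, against 31.7, 36.3, 21.8, 26.5 and 66.6 CPM in sham SAT 1 to 5. Samd9l had 72.8, 54.2, 59.1, 58.5 and 69.6 CPM in VAT removed SAT 1 to 5, against 84.3, 83.8, 96.4, 89.2 and 108 CPM in sham SAT 1 to 5. All 5 VAT removed libraries of Samd9l lay below the lowest sham library, and its difference of -0.55 ± 0.11 was -0.49 without sham SAT 5. Rsad2 had 17.4, 18.0, 22.9, 15.4 and 31.9 CPM in VAT removed SAT 1 to 5, against 25.8, 24.3, 11.9, 16.7 and 93.5 CPM in sham SAT 1 to 5. Apart from sham SAT 5 the groups of Rsad2 overlapped, and its difference of -0.70 was 0.10 without that library.

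Of the other induced genes in SAT, Lgals3bp had 411, 348, 429.8, 289.9 and 512 CPM in VAT removed SAT 1 to 5, against 419, 693, 229, 267 and 755 CPM in sham SAT 1 to 5. Ifi27l2a had 333, 480.4, 829.9, 323 and 697 CPM in VAT removed SAT 1 to 5, against 779, 977, 283, 364 and 877 CPM in sham SAT 1 to 5. Sham SAT 3 and 4 were the lowest of the 10 for Lgals3bp, and for Ifi27l2a they lay with VAT removed SAT 1 and 4 below the other 6 libraries. Ifi35 had 22.7, 21.4, 22.1, 22.5 and 25.7 CPM in VAT removed SAT 1 to 5, against 20.0, 23.5, 23.6, 23.3 and 36.6 CPM in sham SAT 1 to 5. Ifi44 had 3.64, 2.24, 3.04, 3.27 and 4.08 CPM in VAT removed SAT 1 to 5, against 3.91, 5.49, 2.73, 3.98 and 24.5 CPM in sham SAT 1 to 5. Ifi44 had the largest difference in SAT (-1.32 ± 0.57), which was -0.31 without sham SAT 5. Cxcl10 had 11.4, 9.25, 8.99, 11.1 and 9.48 CPM in VAT removed SAT 1 to 5, against 7.65, 7.64, 7.58, 6.69 and 8.99 CPM in sham SAT 1 to 5. VAT removed SAT 3 and sham SAT 5 had the same value to the digits given, and before rounding all 5 VAT removed libraries were above all 5 sham libraries. The difference of Cxcl10 was 0.44 without sham SAT 5.

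**Figure D3:**
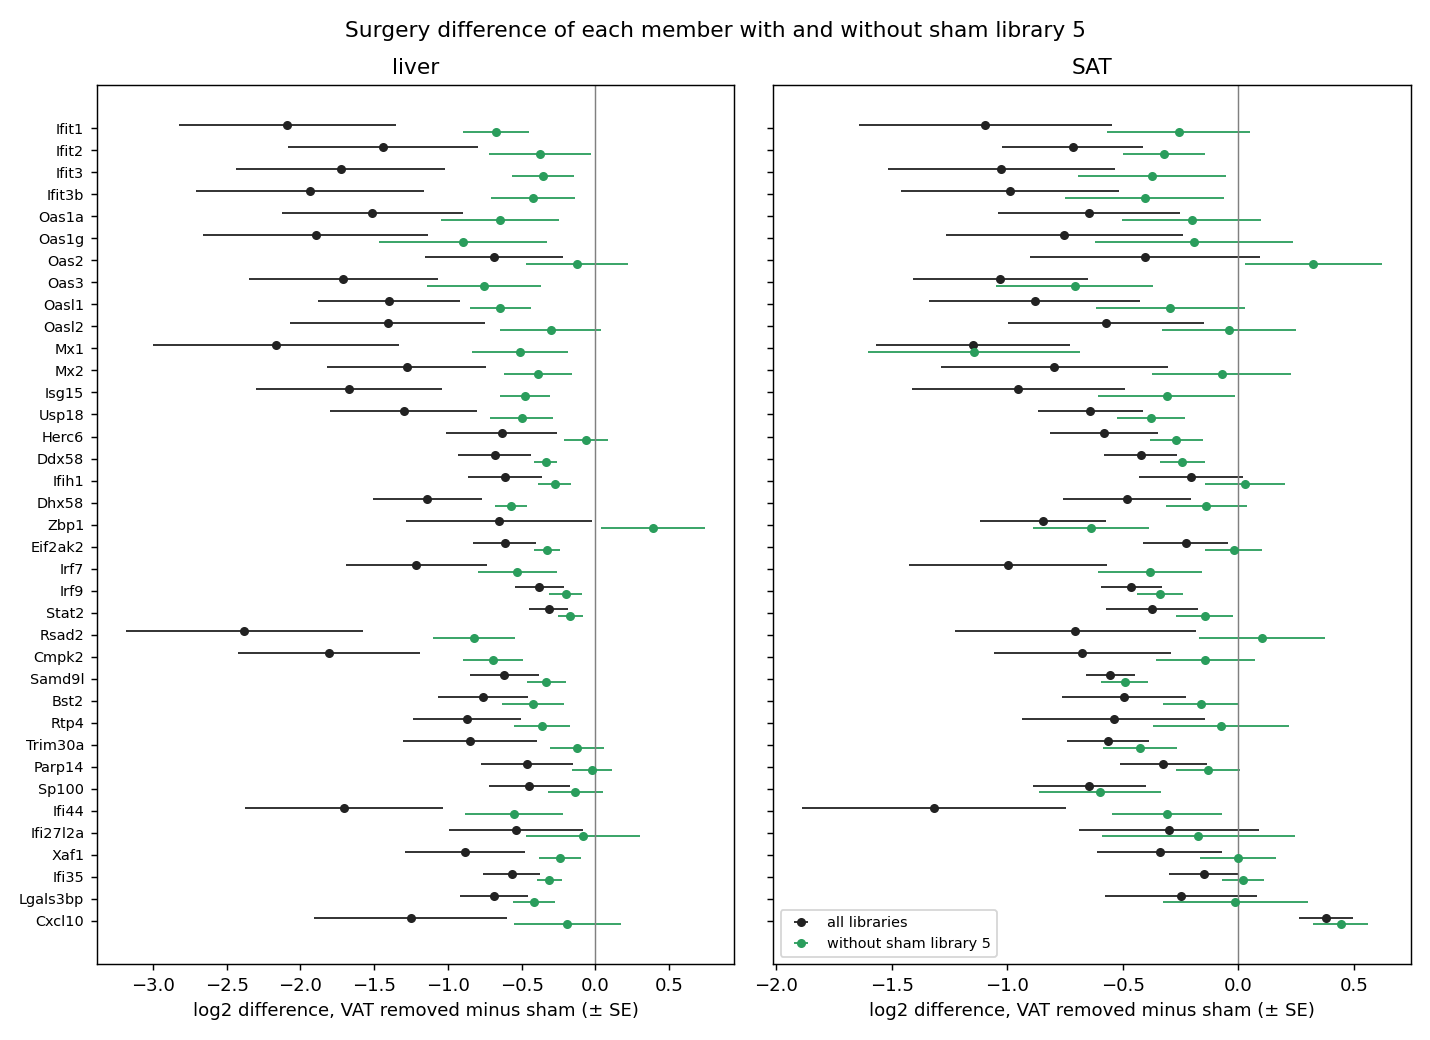
Fitted log2 difference, VAT removed minus sham, with its standard error, for each member in liver (left) and SAT (right), with all libraries (black) and without sham library 5 of that tissue (green). Black points are left of 0 for 37 genes in liver and 36 in SAT, and the green points have medians of -0.36 in liver and -0.20 in SAT.

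The excess of sham library 5 over the other sham libraries was uneven across the members and larger in liver. In liver its fold over the median of sham livers 1 to 4 ran from 1.52 (Stat2) to 14.1 (Mx1), with a median of 4.98, and exceeded 2 for 34 members and 4 for 21. In SAT the fold over the median of sham SAT 1 to 4 ran from 0.928 (Mx1) to 6.22 (Ifi44), with a median of 2.33. It exceeded 2 for 22 members and 4 for 7. All SAT folds here include sham SAT 3 and 4 in that median, and folds without them are not given. Mx1 had 5.87 and 2.86 CPM in sham SAT 1 and 2, 13.6 and 13.4 CPM in 3 and 4, and 8.95 CPM in 5. Ifit1 had 15.6 and 13.5 CPM in sham SAT 1 and 2, 5.70 and 6.60 CPM in 3 and 4, and 51.2 CPM in 5. The fold was larger in liver for 35 members and larger in SAT for Stat2 and Lgals3bp. Across the 37 genes the liver and SAT folds had a Spearman correlation of 0.56, where genes are not independent replicates. By role, the Ifit genes had folds of 7.87 to 13.5 in liver and 2.62 to 5.09 in SAT, and the transcription factors 1.52 to 4.98 and 1.41 to 3.75.

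**Figure D4:**
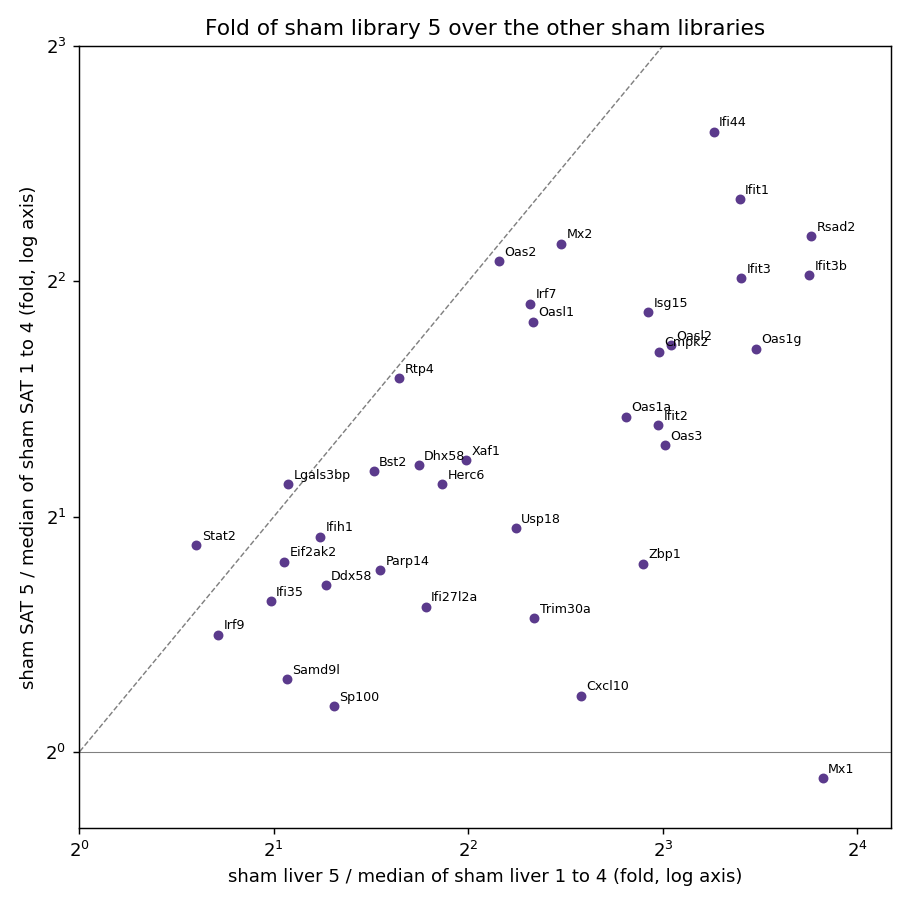
Fold of sham library 5 over the median of sham libraries 1 to 4 for each member, in liver (horizontal, log axis) and SAT (vertical, log axis), with the dashed line at equal folds. All but Stat2 and Lgals3bp lie below the line, and Mx1 is at 14.1 in liver and 0.928 in SAT. The SAT median includes sham SAT 3 and 4, which had the highest Mx1 of the SAT libraries.

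The difference in response between tissues (SAT difference minus liver difference) was positive for 33 of the 37 and negative for 4, with a median of 0.42. Over all genes tested 54.0% were negative and the median was -0.033. None of 19954 genes passed an adjusted p of 0.05 by edgeR (0%), and 1 member, Cxcl10 (1.62 ± 0.68), was at an unadjusted p under 0.05, as were 721 higher and 1300 lower genes of all. DESeq2 called 127 genes and 0 members. At an unadjusted p under 0.05 there were 0 higher members and 1 lower without sham liver 5, against 745 higher and 1360 lower of all 20286 genes. Without sham SAT 5 there were 7 higher members and 0 lower, and the counts over all genes are not given here. Leaving out sham liver 5 turned the median to -0.23, leaving out sham SAT 5 gave 0.90, and leaving out both gave 0.23. Without sham liver 5 and sham SAT 3, 4 and 5, 19 members were positive and 18 negative, with a median of 0.01.

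Genes upstream of the members were compared in the same way, and 0 of those tested were called by edgeR in either tissue. Of 16 interferon ligand genes, 8 had 0 counts in all 20 libraries. A fixed floor of 3 counts, or 0.0688 to 0.148 CPM, was set for a count of 0. The exact Poisson interval used below for Ifnb1 would allow up to 3.69 counts. Ifnb1, the gene of IFN-beta, had 6 counts (exact Poisson interval 2.20 to 13.1), all in sham liver 5, and Ifna5 had 2 counts, also all in sham liver 5. These intervals and limits cover counting error only and treat each count as independent. Many low counts were even numbers, such as 2, 4 and 6 for Ifng, which also had 1 and 7. If counts came in pairs, the intervals and limits are too narrow, which was not tested. Ifnk, a type I interferon best known from keratinocytes, was counted in all 20 libraries, with 990 counts in all. Of 6 receptor genes, 1 was lower after VAT removal in liver (median 0.04) and 5 in SAT (median -0.09). Over all genes tested 47.8% were lower in liver and 50.3% in SAT. Ifnar1 had 55.3, 48.5, 56.7, 50.2 and 47.0 CPM in VAT removed livers 1 to 5, against 46.7, 45.8, 48.8, 52.7 and 53.3 CPM in sham livers 1 to 5. Its partner Ifnar2 had 43.8, 40.6, 38.5, 46.5 and 39.6 CPM in VAT removed livers 1 to 5, against 36.4, 36.7, 36.9, 36.8 and 39.4 CPM in sham livers 1 to 5. Sham liver 5 had the highest value of the sham livers for both receptor genes, and for both it lay inside the range of the VAT removed livers.

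Of 10 signalling genes, 5 were lower in liver (median -0.01) and 10 in SAT (median -0.21). The sensing list had 12 of 15 tested members lower in liver (median -0.24) and 11 of 15 in SAT (median -0.27). The shares lower over all genes were 47.8% in liver and 50.3% in SAT. Sham liver 5 was highest for 4 of the 10 signalling and 10 of the 15 sensing genes, against 11.8% of all genes. Of 6 negative regulators, 2 were lower in liver (median 0.04) and 6 in SAT (median -0.32). The signalling, sensing and negative regulator sums of sham SAT 3 and 4 were above those of the other SAT libraries.

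Other interferon stimulated genes, which are not on the list, were mostly lower as well. Of 45 tested in liver 42 were lower (median -0.40), against 47.8% of all genes. Sham liver 5 was highest for 43 of 45, against 11.8% of all genes. Ly6e, a cell surface protein gene, had 315, 393, 338, 333 and 409 CPM in VAT removed livers 1 to 5, against 339.8, 648, 398, 331 and 1069 CPM in sham livers 1 to 5. Sham livers 2 and 5 were high for Ly6e. In SAT 42 of 45 were lower (median -0.46), against 50.3% of all genes. Sham SAT 5 was highest for 25, against 6.22% of all genes. Of 14 interferon-gamma induced GTPase genes tested, 14 were lower in liver (median -0.56) with sham liver 5 highest for 14, and 13 were lower in SAT (median -0.54) with sham SAT 5 highest for 11. Gbp5, Gbp6 and Gbp10 were not analysed here. None of the genes in these lists was called by edgeR in either tissue. For SAT these lists are not given without sham SAT 3 and 4, which were highest for some genes and lowest for others. Epsti1 had 89.2 and 76.6 CPM in sham SAT 3 and 4, against at most 18.3 CPM in the other SAT libraries. Ifitm3 had 53.5 and 70.5 CPM in them, against at least 76.6 CPM in the others. The acute phase list had 4 of 10 higher in liver. Of these 4, 3 had an unadjusted p under 0.05, against 799 higher genes of all 17078. The other 6 were lower, with 0 at that level (median of the list -0.02), and sham liver 5 was highest for 4 of 10.

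Markers of other cells were set beside the members, and their part in the result was not tested. All 6 T cell genes were counted in every group, and their sum was 3.74, 3.18, 3.78, 4.46 and 11.0 CPM in VAT removed livers 1 to 5, against 3.10, 9.59, 3.26, 2.34 and 12.1 CPM in sham livers 1 to 5. The T cell sum was thus high in sham livers 2 and 5 and also in VAT removed liver 5, where the members' mean was 4.15. Summed macrophage and monocyte markers (8 genes, none at 0 throughout a group) were 434, 244, 163, 248 and 207 CPM in VAT removed livers 1 to 5, against 141, 303, 165, 209 and 299 CPM in sham livers 1 to 5. Sham livers 2 and 5 had nearly equal macrophage sums, and their member means were 4.78 and 6.35. Kupffer cell markers (6 genes) summed to 532, 203, 187, 268 and 152.5 CPM in VAT removed livers 1 to 5, against 120.5, 189, 104, 229.5 and 252 CPM in sham livers 1 to 5. The fitted difference was positive for 6 of 6 (median 0.92, 2 at an unadjusted p under 0.05, 0 called by edgeR). B cell markers summed to 19.5, 9.73, 10.7, 6.03 and 5.82 CPM in VAT removed livers 1 to 5, against 7.07, 5.93, 5.07, 5.90 and 5.95 CPM in sham livers 1 to 5, also with positive differences for 6 of 6 (median 0.97, 3 at an unadjusted p under 0.05, 0 called). Over all genes 8913 of 17078 had positive differences in liver, 799 of them at an unadjusted p under 0.05. The Kupffer and B cell sums were both highest in VAT removed liver 1, and both overlapped between surgeries. Neutrophil markers summed to 5.50 to 12.7 CPM in VAT removed livers and 5.21 to 10.5 CPM in sham livers, and markers of plasmacytoid dendritic cells, a main source of IFN-alpha, to 3.18 to 4.88 and 2.78 to 4.36 CPM. In SAT the B and T cell sums of sham library 5 were 6.62 and 5.92 CPM, among the lowest of the 10, while its member mean was the highest.

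Levels in SAT and liver were compared within the VAT removed mice, a contrast that the choice of members did not use and that leaves out all sham libraries. Of the 37 members, 5 were higher in SAT and 18 lower at an adjusted p under 0.05 (edgeR), where 35% of 18546 genes were called higher and 34.7% lower. The median difference was -0.49 on the log2 scale. A scaling by total counts moved the median of all genes by 0.52, and then 14 members were higher and 10 lower. The share of all genes called under that scaling is not given here. Changes are therefore read as relative to the bulk of genes, and 15 members kept the same call under both scalings. Leaving out 1 library at a time gave 3 to 7 higher and 17 to 19 lower, with 3 higher without VAT removed liver 4, VAT removed SAT 1 or VAT removed SAT 5. Over all genes 12533 to 12983 were called in these fits.

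The 5 members higher in SAT under both scalings were Ifi27l2a, Sp100, Lgals3bp, Cxcl10 and Trim30a. Ifi27l2a rose most, by 6.51 ± 0.45 on the log2 scale (adjusted p = 1.76e-07, edgeR). Sp100, a nuclear body gene, rose by 1.29 ± 0.17 (adjusted p = 2.84e-05). Lgals3bp rose by 1.01 ± 0.18 (adjusted p = 0.000348) and Cxcl10 by 0.76 ± 0.30 (adjusted p = 0.0374). The 10 lower in SAT under both scalings were Bst2, Dhx58, Ifi44, Irf7, Irf9, Isg15, Mx2, Oasl1, Stat2 and Usp18. Oasl1 fell by 2.97 ± 0.26 (adjusted p = 1.11e-06) and Bst2 by 2.16 ± 0.12 (adjusted p = 2.07e-08). Stat2 fell by 1.45 ± 0.10 and Irf9 by 1.00 ± 0.11, so both ISGF3 genes of the set were lower in SAT. For 7 members the sign of the difference turned between the scalings: Ddx58, Eif2ak2, Ifit3, Ifit3b, Mx1, Oas1a and Parp14.

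In the sham mice the same contrast called 2 members higher in SAT, Ifi27l2a and Sp100, and 12 lower, where 35.3% of 18449 genes were called higher and 29.7% lower. All 14 were called the same way in VAT removed mice, and 30 of 37 had the same sign in both. Leaving out sham liver 5 and sham SAT 5 gave 4 higher and 17 lower members. Without sham liver 5 alone there were 4 higher and 8 lower, and without sham SAT 5 alone 2 higher and 20 lower. With total counts, 4 were higher and 5 lower.

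Per kilobase of exon, and on a scaling common to both tissues, the highest member in VAT removed SAT was Ifi27l2a at 934 ± 393 CPM per kilobase (SD, n = 5), followed by Lgals3bp at 113 ± 23.6 and Bst2 at 23.3 ± 3.34. In VAT removed liver Bst2 led at 104 ± 12.5 CPM per kilobase, followed by Lgals3bp at 56.5 ± 12.1, Stat2 at 18.9 ± 1.56 and Irf7 at 16.9 ± 3.67. Stat2 and Irf7 differed in liver by less than the SD of Irf7. Oas3 was the lowest member in both tissues, at 0.377 ± 0.159 in VAT removed SAT and 0.667 ± 0.166 in VAT removed liver.

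**Figure D5:**
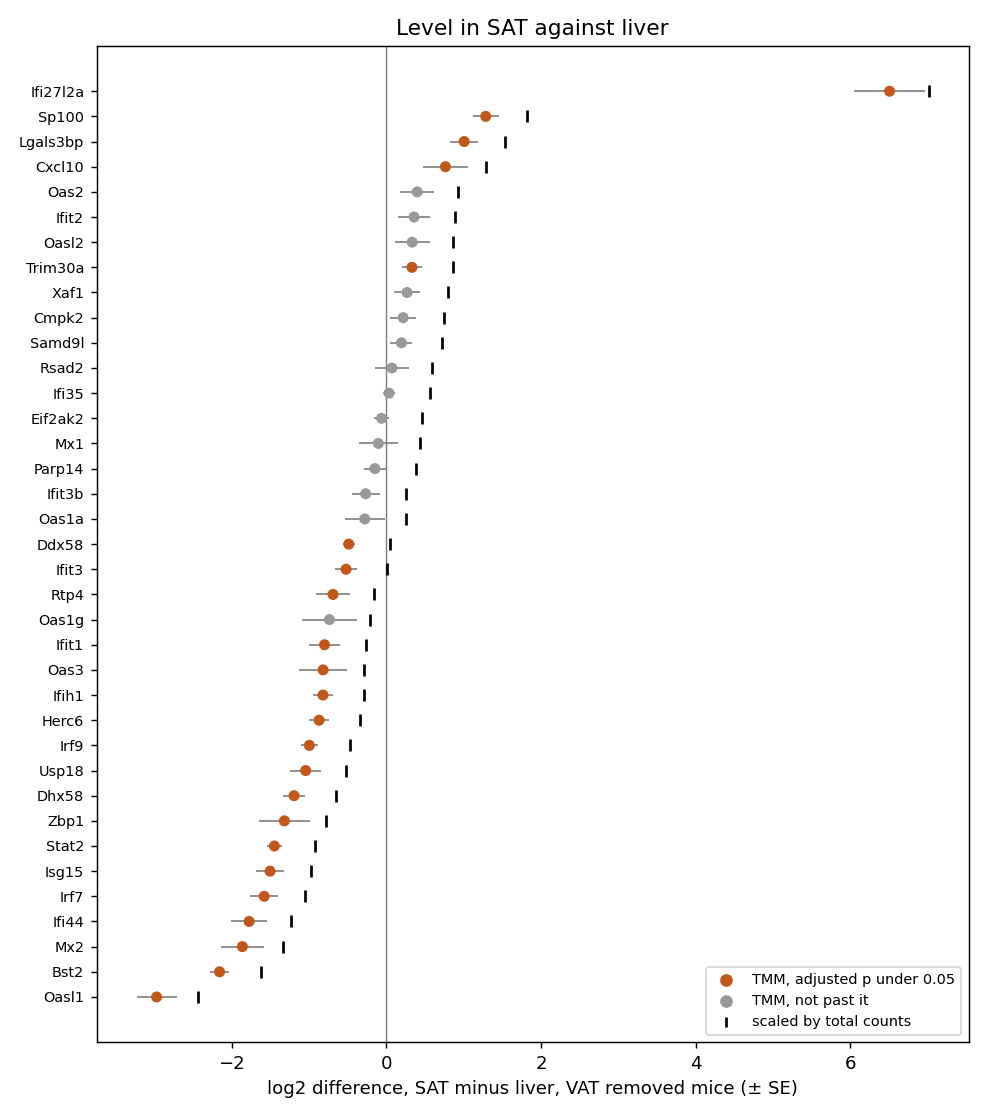
Fitted log2 difference, SAT minus liver, in VAT removed mice with its standard error for each member, orange where the adjusted p is under 0.05 with TMM scaling and grey where not; vertical ticks show the values scaled by total counts. Ifi27l2a is at 6.51 and Oasl1 at -2.97, and the ticks lie right of the points because that scaling moved the median of all genes by 0.52.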

How the data were processed

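Total RNA of mouse liver and SAT was sequenced after depletion of ribosomal RNA, per the labels' protocols. The submitters' processing notes name bcl2fastq, the aligner STAR 2.5.1a, the counter featureCounts 1.46 and the genome build GRCm38. No source used here gives the annotation, the strand setting or the treatment of reads with several matches, so overlapping genes may be counted together. What the authors deposited is 1 table with a raw count, not normalized, for each gene in 20 libraries. Of its 40757 entries, 317 exact repeats were dropped.

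The members and all gene lists were chosen with earlier results of these data known. Counts were fitted over all genes with edgeR 4.0.16 (R 4.3.3, limma 3.58.1): genes kept by edgeR's default expression filter, TMM factors, robust quasi-likelihood test, Benjamini-Hochberg adjustment, threshold 0.05. Each surgery comparison used the 10 libraries of its tissue, each tissue comparison the 10 of its surgery group, and the difference in response all 20. Mean log2 CPM adds 0.01 to each value. The alternatives were DESeq2 1.42.0, other scalings and filters, library number as a block, and libraries left out. Values per library were given for up to 3 members of each role with the highest mean CPM, and for those with the 2 largest and 2 smallest differences in either tissue. Exons for lengths came from GENCODE M21 and promoter windows from RefSeq, matched by symbol.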

Additional observations from a re-analysis of the deposited data

Results flagged for a closer look

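In 108 groups of 5 libraries, made from 26 members and their mean log2 CPM, the highest or lowest library was compared with its neighbour by Dixon's ratio of gap to range, with a critical value of 0.71. The ratio passed in 38 groups, where chance passes about 1 in 20. Since the choice of members used these levels, this is a description. In VAT removed libraries it passed for Oasl2 in liver 5 at 18.9 CPM, with the next library at 11.1 CPM, and for Ifit2 in SAT 1 at 17.7 CPM, with the next at 14.4 CPM.

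In sham liver 23 genes passed, each through library 5. Above 100 CPM, with the next sham liver in brackets, these were Oasl1 140.4 CPM (next 46.2), Ifit3 177 CPM (next 30.7), Ifit1 152 CPM (next 22.7), Ifih1 152 CPM (next 75.9), Ddx58 134 CPM (next 62.8), Parp14 248 CPM (next 106), Lgals3bp 360.1 CPM (next 199.6), Stat2 161 CPM (next 111), Irf7 310.4 CPM (next 127) and Rsad2 257 CPM (next 39.5). From 50 to 100 CPM they were Oasl2 98.4 CPM (next 25.2), Ifit2 64.8 CPM (next 17.8), Herc6 84.3 CPM (next 31.3), Usp18 99.8 CPM (next 26.5), Isg15 73.1 CPM (next 11.9), Mx2 61.2 CPM (next 15.4), Eif2ak2 62.8 CPM (next 30.9), Samd9l 97.2 CPM (next 49.3), Irf9 75.2 CPM (next 47.2) and Ifi44 78.1 CPM (next 20.0). Below 50 CPM they were Mx1 48.7 CPM (next 7.50), Ifi35 36.9 CPM (next 18.8) and Cxcl10 29.2 CPM (next 5.61).

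In sham SAT 13 genes passed, again each through library 5. At or above 50 CPM, with the next sham SAT library in brackets, these were Oas2 70.3 CPM (next 22.3), Ifit1 51.2 CPM (next 15.6), Herc6 50.9 CPM (next 24.4), Ddx58 93.5 CPM (next 60.8), Parp14 219 CPM (next 136), Irf7 126 CPM (next 47.6) and Rsad2 93.5 CPM (next 25.8). Below 50 CPM they were Oasl1 16.4 CPM (next 6.44), Usp18 28.0 CPM (next 15.2), Isg15 17.5 CPM (next 6.26), Mx2 16.2 CPM (next 5.34), Ifi35 36.6 CPM (next 23.6) and Ifi44 24.5 CPM (next 5.49). The cause was not tested.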

How the results depend on the processing

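The number of members called in the surgery comparisons and in the difference in response was 0 in every setting, except that DESeq2 called 1 member lower in SAT. Counts over all genes moved more. In liver DESeq2 called 199 genes, the fit without a filter 3, the filter of 1 CPM in 5 libraries 3, the fit of all 20 libraries 27 and total counts 2. In SAT DESeq2 called 193, and leaving out sham SAT 3, 4 and 5 gave 1. DESeq2 called 127 for the difference in response. The members' median in liver was -0.14 without sham livers 2 and 5. For SAT minus liver in VAT removed mice, total counts gave 14 members higher and 10 lower with a median of 0.04, and turned Ifit3 to 0.0095, Ddx58 to 0.044 and Eif2ak2 to 0.47. In sham mice, total counts gave 4 higher and 5 lower, the replicate block gave 20 lower, and leaving out libraries 5, or these and sham SAT 3 and 4, gave 4 higher. For these settings of the tissue comparisons the shares over all genes are not given. Settings with total counts change the scaling; otherwise the cause was not tested.

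Leaving out 1 library at a time gave 0 to 53 genes in liver (53 without VAT removed liver 3), 0 to 1 in SAT (1 without sham SAT 5) and 0 to 3 for the difference in response. The members' median ran from -1.29 (without sham liver 3) to -0.36 (without sham liver 5) in liver, from -0.71 (without sham SAT 3) to -0.20 (without sham SAT 5) in SAT, and from -0.23 (without sham liver 5) to 0.90 (without sham SAT 5) for the difference in response. For SAT minus liver, members called higher ran from 3 to 7 and lower from 17 to 19 in VAT removed mice. In sham mice 2 to 4 were higher and 8 (without sham liver 5) to 20 (without sham SAT 5) lower, and the median ran from -1.45 to -0.14. With the library number as a replicate block the members' median was -0.83 in liver and -0.49 in SAT with 0 genes called in either, as without the block. Under the block 13 members in liver and 10 in SAT were lower at an unadjusted p under 0.05, against 27 and 13 without it. Over all genes 889 of 17078 in liver and 477 of 18530 in SAT were lower at that level under the block. Same-numbered libraries of different groups had correlated deviations of -0.21 to 0.31, and for no 2 groups were all 5 over 0.1. The labels give no pairs, and the main fits treated all libraries as unpaired. A limit of 0.1 cannot exclude that same-numbered libraries came from the same mouse. Libraries correlated best with their own number for 4 of 5 pairs between VAT removed and sham liver. The same held for 4 of 5 between SAT and liver of VAT removed mice. It held for 2 of 5 between VAT removed and sham SAT and for 1 of 5 between SAT and liver of sham mice. Sham SAT 5 and sham liver 5 had a correlation of -0.086. These values are a hint from the data and not the design. Of 2538 values of single members under the alternatives, 2362 kept direction and side of the threshold, 37 newly passed it and 39 no longer did. The sign changed in 97 values that passed it in neither setting and in 3 that passed it in at least 1. Whether depth limited the ligand genes, 8 of which had 0 counts, was not tested.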
